A study of Homo sapiens with 12 samples.

Results

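The genes described here are 9 genes of antigen presentation: HLA-B, HLA-C, HLA-E, HLA-F, HLA-DRB1, B2M, TAP1, TAP2 and TAPBP. They were chosen by name and located in the count table by their Ensembl identifiers as paired with symbols in GENCODE, and they are 9 of its 62703 genes. Counts came from HCT116, a human colorectal carcinoma cell line with an epithelial origin. Cells were transfected for 48 h with an siRNA against hnRNP U (hnRNP U siRNA) or with a control siRNA. The labels describe the control siRNA libraries as wild-type and name no other agent or allele in either group. The groups were heavy polysomal (HP) RNA with hnRNP U siRNA, HP RNA with control siRNA, total RNA with hnRNP U siRNA and total RNA with control siRNA, with 3 biological replicates each and 12 libraries in all. HP RNA is the RNA that sediments with mRNAs carrying many ribosomes. The study sequenced both kinds of RNA to ask how silencing hnRNP U, an RNA-binding protein, changes the amount of each mRNA and its share on heavy polysomes. All libraries come from a single cell line, and which hnRNP U siRNA was transfected is not given in the sources used here.

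Major histocompatibility complex (MHC) class I molecules show peptides from inside the cell to CD8+ T cells and to natural killer cells. A class I heavy chain pairs with the light chain β2-microglobulin in the endoplasmic reticulum, where it waits for a peptide. Peptides cut by the proteasome are pumped in by the transporter TAP, and tapasin holds the empty heavy chain next to TAP until it is loaded. Class II molecules present peptides taken up from outside and are made mainly by professional antigen presenting cells. In epithelial tumour cells the amount of class I sets how well the cell is seen by T cells, and interferon-γ raises most genes of the pathway.

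Library totals ran from 30305012 to 39761103 counts. HNRNPU itself was lower in both kinds of RNA, with a mean of 78.3 ± 3.71 CPM, counts scaled to library size, in HP RNA with hnRNP U siRNA, against 1080.3 ± 61.5 CPM with control siRNA (SD, n = 3 each). Total RNA had 158.9 ± 9.47 CPM with hnRNP U siRNA and 1028 ± 67.9 CPM with control siRNA (SD, n = 3 each). Of 7 markers of epithelium, KRT8, KRT18 and EPCAM made up most of a sum of 2882 to 5682 CPM across libraries, while KRT20 had at most 2.50 CPM and VIL1 at most 1 count. The 10 leukocyte markers summed to 0.503 to 1.499 CPM, 7 of them had under 10 counts in every library, and PTPRC (CD45) had at most 1 count. The 8 fibroblast and endothelium markers summed to 7.13 to 10.9 CPM with hnRNP U siRNA and 14.7 to 18.3 CPM with control siRNA, nearly all of it COL1A1, whose range was 6.68 to 10.497 CPM with hnRNP U siRNA and 13.9 to 17.4 CPM with control siRNA. Of these 8 markers 4 had under 10 counts in every library. Among them were DCN at 0, CDH5 at no more than 1 count and COL1A2 at no more than 2. COL3A1 had 1 to 14 counts a library. All CPM values are scaled by trimmed mean of M values (TMM) on a common scale over the 12 libraries, so every level and difference is relative to the other genes of the libraries.

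All 9 genes passed the filter on low counts and were tested beside 15920 genes in all. Of the 9, 2 rose and 3 fell in HP RNA with hnRNP U siRNA, and 2 rose and 2 fell in total RNA. HLA-E, a heavy chain of class I that shows leader peptides of other class I chains to natural killer cells, and TAP1, a subunit of the peptide transporter, rose in both. TAPBP, which encodes tapasin, and HLA-DRB1, a class II β chain, fell in both, and B2M fell in HP RNA and was not called in total RNA. HLA-B and HLA-C, the classical heavy chains, and TAP2 moved by at most 0.06 on the log2 scale in either kind of RNA. Genes were called where the quasi-likelihood test of edgeR, adjusted by Benjamini-Hochberg over all genes, gave a p under 0.05. In HP RNA 25.4% of all genes tested were called higher and 26.3% lower, and in total RNA 27.9% were called higher and 29.5% lower. In bulk RNA, fewer cells of a type and less RNA per cell cannot be told apart. The counts of 2 and 3, or 2 and 2, out of 9 are near these shares and are no result about the group. The median log2 fold change of the 9 genes was 0.05 in HP RNA, against 0.01 for all genes tested, and −0.03 in total RNA, against 0.00.

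**Figure D1:**
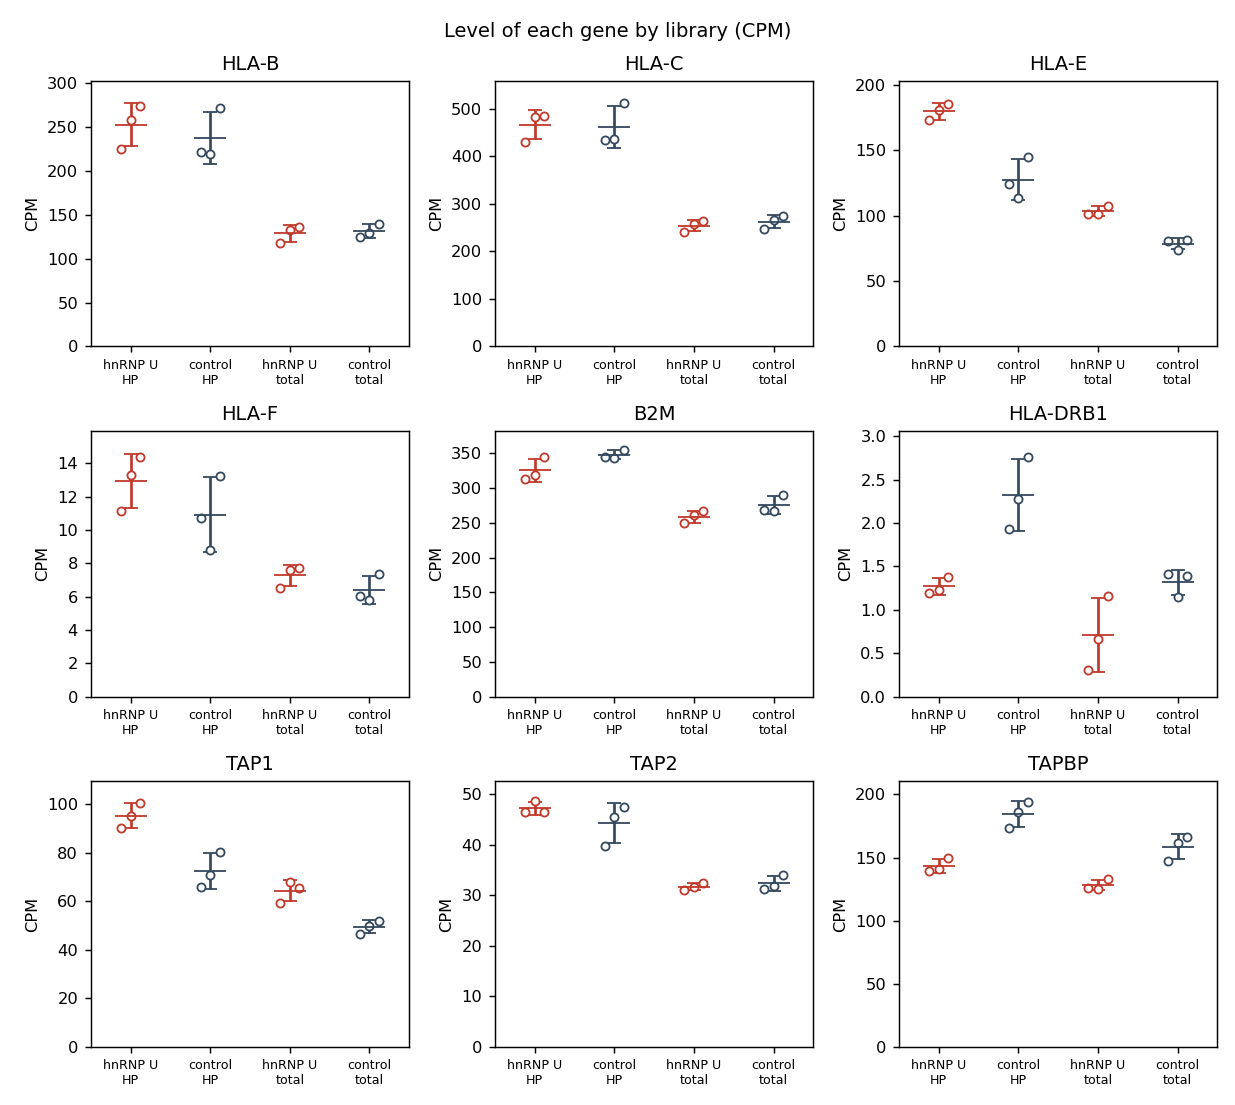
Level in CPM (y axis, from 0) of each of the 9 genes in HP RNA and total RNA of cells given hnRNP U siRNA (red) or control siRNA (dark blue), with 1 circle per library, a bar at the mean and whiskers of 1 SD (n = 3). HLA-E and TAP1 are higher, and TAPBP lower, in every hnRNP U siRNA library than in every control siRNA library of the same kind of RNA, whereas the HLA-B and HLA-C circles overlap.

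The classical heavy chains HLA-B and HLA-C (chr6:31353872-31367067 and chr6:31268749-31272130 of GRCh38, both on the minus strand) bind peptides for CD8+ T cells. In HP RNA HLA-B had 225, 258 and 274 CPM with hnRNP U siRNA, against 221, 219.5 and 272 CPM with control siRNA. The total RNA libraries had 118, 132 and 136 CPM with hnRNP U siRNA, against 124, 129 and 140.0 CPM with control siRNA. The groups overlapped in both. The log2 fold change of HLA-B was 0.05 in HP RNA (SE 0.09, 95% interval −0.14 to 0.25, adjusted p = 0.65 by edgeR) and −0.03 in total RNA (SE 0.05, 95% interval −0.14 to 0.08, adjusted p = 0.65 by edgeR).

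HLA-C had 431, 483 and 485 CPM in HP RNA with hnRNP U siRNA, against 435, 437 and 513 CPM with control siRNA. HLA-C in total RNA was at 241, 257 and 263 CPM with hnRNP U siRNA, against 247, 265 and 274 CPM with control siRNA. Among the control siRNA libraries of HP RNA, replicate 3 was the highest for HLA-C and for each of the 9 genes. Its log2 fold change was −0.02 in HP RNA (SE 0.06, 95% interval −0.16 to 0.12, adjusted p = 0.82 by edgeR) and −0.05 in total RNA (SE 0.05, 95% interval −0.15 to 0.05, adjusted p = 0.36 by edgeR). These intervals leave room for changes of up to 0.25 on the log2 scale for HLA-B and 0.16 for HLA-C.

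HLA-B and HLA-C are near-identical in sequence, and their promoters show it. The promoter sequences below are those of RefSeq on GRCh38.p14, from 250 bases before the start of the gene to 50 after it, and 8 of the 9 genes were matched to one by symbol. They are shown because both genes hold the motifs of class I promoters and neither moved with the siRNA. Capitals mark matches, on either strand, to GGGANNNNCC (the κB motif read by NF-κB), GAANNGAAA (the class I form of the interferon-stimulated response element), TGACG (the X2 site of the MHC enhanceosome) and CCAAT (the Y box read by NF-Y). HLA-B lies at chr6:31357130-31357429 and HLA-C at chr6:31272043-31272342, both read on the minus strand.
HLA-B: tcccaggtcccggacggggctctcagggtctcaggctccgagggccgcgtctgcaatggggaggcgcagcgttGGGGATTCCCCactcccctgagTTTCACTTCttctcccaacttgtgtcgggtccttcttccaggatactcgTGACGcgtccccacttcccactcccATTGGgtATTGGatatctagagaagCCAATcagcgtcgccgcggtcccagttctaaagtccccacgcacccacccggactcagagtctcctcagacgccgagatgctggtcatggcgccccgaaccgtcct
HLA-C: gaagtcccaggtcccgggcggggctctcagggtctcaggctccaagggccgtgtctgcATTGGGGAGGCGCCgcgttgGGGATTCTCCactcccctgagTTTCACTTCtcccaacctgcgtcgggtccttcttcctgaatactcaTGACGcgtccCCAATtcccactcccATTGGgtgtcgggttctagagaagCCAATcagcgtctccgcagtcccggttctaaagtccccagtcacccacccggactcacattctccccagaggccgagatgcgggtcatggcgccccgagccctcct
Aligned, the 2 promoters were identical at 89.7% of positions and the coding sequences of the canonical transcripts at 91.5%. HLA-B held 2 overlapping κB matches, on opposite strands, 1 class I interferon motif, 1 X2 match and 3 CCAAT matches. HLA-C held 2 κB matches, 1 class I interferon motif, 1 X2 match and 4 CCAAT matches, and its κB match at −188 overlaps the CCAAT match at −192. Of 16147 promoters of this length, 5.8% held the class I interferon motif, 31.3% the κB motif, 31.6% TGACG and 34.5% CCAAT. A match says that these letters are in the window and nothing of what binds there. Reads of 75 bases can fit more than a single HLA gene, and how such reads were counted is not given in the sources used here, so the split of counts among HLA genes is uncertain. The related pseudogene HLA-H was named after its values were seen. Its mean was 6.38 CPM in total RNA with hnRNP U siRNA and 7.45 CPM with control siRNA (n = 3 each). In HP RNA the means were 11.4 and 13.3 CPM for the same siRNAs, with overlapping libraries. HLA-H was called lower near the threshold, at −0.26 on the log2 scale in HP RNA (adjusted p = 0.047 by edgeR). Total RNA had −0.23 (adjusted p = 0.04 by edgeR).

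HLA-E (chr6:30489509-30494194, plus strand) was the heavy chain that moved. In HP RNA it had 173, 180.4 and 185 CPM with hnRNP U siRNA, against 124, 114 and 144 CPM with control siRNA. HLA-E in total RNA was at 101, 101 and 108 CPM with hnRNP U siRNA, against 80.7, 73.6 and 81.5 CPM with control siRNA. Every hnRNP U siRNA library was above every control siRNA library of its kind. Its log2 fold change was 0.46 in HP RNA (SE 0.07, adjusted p = 3.8e-05 by edgeR) and 0.39 in total RNA (SE 0.05, adjusted p = 7.6e-07 by edgeR). Across all alternatives it ran from 0.38 to 0.55 in HP RNA and from 0.34 to 0.42 in total RNA, called in each.

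HLA-F (chr6:29722775-29738528, plus strand) is a non-classical heavy chain that natural killer cell receptors recognise. It had 11.2, 13.3 and 14.4 CPM in HP RNA with hnRNP U siRNA, against 10.7, 8.78 and 13.3 CPM with control siRNA. In total RNA it had 6.54, 7.57 and 7.71 CPM with hnRNP U siRNA, against 6.02, 5.81 and 7.38 CPM with control siRNA. The groups overlapped, since control replicate 3 was high in both kinds of RNA. This came to a log2 fold change of 0.21 in HP RNA (SE 0.14, adjusted p = 0.22 by edgeR) and 0.17 in total RNA (SE 0.11, adjusted p = 0.18 by edgeR). Without the control replicate 3 library of its own kind of RNA each passed the threshold, at 0.37 in HP RNA (adjusted p = 0.028) and 0.30 in total RNA (adjusted p = 0.041), where adjusted p over all alternatives ran from 0.028 to 0.68 and from 0.041 to 0.45. With a block by replicate number HLA-F was called in HP RNA (0.22, adjusted p = 0.035). The gene rests on 187 to 514 counts a library, and the lncRNA HLA-F-AS1, which overlaps it on the opposite strand, had 25 to 77 counts. Whether counting used strand is not given in the sources used here, so reads of such antisense pairs may not be separated.

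B2M (chr15:44711358-44718851, plus strand), the light chain shared by the class I heavy chains, had 313, 319 and 345 CPM in HP RNA with hnRNP U siRNA, against 345, 344 and 355 CPM with control siRNA. Total RNA held 249.4, 261 and 267 CPM with hnRNP U siRNA, against 269, 267 and 290.5 CPM with control siRNA. In total RNA the groups were apart by a narrow margin, while in HP RNA hnRNP U siRNA replicate 3 fell within the control range. On the log2 scale HP RNA differed by −0.13 (SE 0.05, adjusted p = 0.04 by edgeR) and total RNA by −0.09 (SE 0.04, adjusted p = 0.08 by edgeR). Both sit at the threshold. In HP RNA the call was lost without hnRNP U siRNA replicate 1 (−0.10, adjusted p = 0.18) or 2 (−0.11, adjusted p = 0.13), without control replicate 1 (−0.13, adjusted p = 0.056) or 3 (−0.12, adjusted p = 0.094), with upper-quartile factors (−0.11) and with all 12 libraries in 1 fit (−0.10), over an adjusted p range of 0.0053 to 0.18. In total RNA it was gained without control replicate 1 (−0.11, adjusted p = 0.044) or 2 (−0.12, adjusted p = 0.033), over a range of 0.027 to 0.41, and with a block by replicate number (−0.09, adjusted p = 0.027).

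Because HLA-E and B2M are counted in the same library, their ratio does not depend on the scaling between libraries. There were 0.553, 0.566 and 0.537 HLA-E counts per B2M count in HP RNA with hnRNP U siRNA, against 0.360, 0.330 and 0.407 with control siRNA. In total RNA there were 0.405, 0.388 and 0.404 with hnRNP U siRNA, against 0.2996, 0.276 and 0.280 with control siRNA. HLA-E per HLA-B was likewise apart, at 0.768, 0.698 and 0.677 in HP RNA with hnRNP U siRNA against 0.562, 0.517 and 0.532 with control siRNA. HLA-B per B2M overlapped between siRNAs, at 0.720 to 0.810 in HP RNA with hnRNP U siRNA and 0.639 to 0.764 with control siRNA. These ratios were chosen after the values were seen and are a description.

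The peptide transporter is a heterodimer of TAP1 (chr6:32845209-32853816, minus strand) and TAP2 (chr6:32821833-32838739, minus strand), both ABC transporters of the endoplasmic reticulum membrane. TAP1 had 90.4, 94.9 and 101 CPM in HP RNA with hnRNP U siRNA, against 66.0, 70.6 and 80.4 CPM with control siRNA. Total RNA held 59.4, 67.7 and 65.5 CPM with hnRNP U siRNA, against 46.5, 49.9 and 51.8 CPM with control siRNA. All 3 hnRNP U siRNA libraries were above all 3 control siRNA libraries in each kind of RNA. The log2 fold change of TAP1 was 0.36 in HP RNA (SE 0.07, adjusted p = 0.00015 by edgeR) and 0.37 in total RNA (SE 0.05, adjusted p = 7.3e-06 by edgeR).

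TAP2 had 46.6, 48.7 and 46.4 CPM in HP RNA with hnRNP U siRNA, against 39.8, 45.5 and 47.5 CPM with control siRNA. Total RNA held 31.1, 31.7 and 32.4 CPM with hnRNP U siRNA, against 31.2, 31.9 and 34.0 CPM with control siRNA. These groups overlapped. The log2 fold change of TAP2 was 0.06 in HP RNA (SE 0.07, 95% interval −0.08 to 0.20, adjusted p = 0.49 by edgeR) and −0.03 in total RNA (SE 0.05, 95% interval −0.14 to 0.07, adjusted p = 0.59 by edgeR). Counts of TAP1 per count of TAP2 were 1.94, 1.95 and 2.16 in HP RNA with hnRNP U siRNA, against 1.66, 1.55 and 1.69 with control siRNA. In total RNA they were 1.91, 2.14 and 2.02 with hnRNP U siRNA, against 1.49, 1.57 and 1.52 with control siRNA, so the 2 subunits of the pump did not keep a constant ratio of mRNA.

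TAPBP (chr6:33299694-33314284, minus strand) went the other way. It had 139, 141 and 149 CPM in HP RNA with hnRNP U siRNA, against 174, 186 and 194 CPM with control siRNA. TAPBP in total RNA was at 126, 125 and 133 CPM with hnRNP U siRNA, against 147, 162 and 166 CPM with control siRNA. No library of one siRNA overlapped the other. Its log2 fold change was −0.40 in HP RNA (SE 0.06, adjusted p = 3.4e-06 by edgeR) and −0.31 in total RNA (SE 0.05, adjusted p = 1.2e-05 by edgeR). Counts of TAP1 per count of TAPBP were 0.649, 0.674 and 0.673 in HP RNA with hnRNP U siRNA, against 0.380, 0.379 and 0.414 with control siRNA. The changes of TAP1 and TAPBP were called under every alternative, between 0.30 and 0.44 for TAP1 and between −0.44 and −0.37 for TAPBP in HP RNA, and between 0.33 and 0.43 for TAP1 and between −0.36 and −0.27 for TAPBP in total RNA.

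The promoters of TAP1 and TAPBP are shown because the printed windows carry interferon motifs and the genes moved in opposite directions. Capitals mark, on either strand, GAAANNGAAA (the interferon-stimulated response element, ISRE), GGGANNNNCC (κB) and CCAAT. Of 2 RefSeq starts of TAP1 the upstream one is printed, and the window of the other held 0 matches to these motifs. TAP1 lies at chr6:32853655-32853954 and TAPBP at chr6:33314029-33314328, both read on the minus strand of GRCh38.p14.
TAP1: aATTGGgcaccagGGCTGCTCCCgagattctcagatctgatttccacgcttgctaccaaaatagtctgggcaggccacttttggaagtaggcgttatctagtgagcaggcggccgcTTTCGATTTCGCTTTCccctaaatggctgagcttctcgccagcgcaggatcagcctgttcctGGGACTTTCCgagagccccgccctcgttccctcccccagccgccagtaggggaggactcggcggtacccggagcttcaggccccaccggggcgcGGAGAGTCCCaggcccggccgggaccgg
TAPBP: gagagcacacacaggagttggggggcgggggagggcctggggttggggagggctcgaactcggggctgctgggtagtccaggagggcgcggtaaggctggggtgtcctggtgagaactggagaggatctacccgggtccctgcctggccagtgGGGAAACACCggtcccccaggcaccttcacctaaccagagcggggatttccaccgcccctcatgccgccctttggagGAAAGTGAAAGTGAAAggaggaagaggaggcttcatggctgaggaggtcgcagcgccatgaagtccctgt
Each held 2 overlapping ISRE matches, starting 134 and 128 bases before the start of TAP1 and 20 and 14 bases before the start of TAPBP. TAP1 held 3 κB matches and TAPBP 1. The ISRE was found in 5 of the 8 promoters (HLA-F, B2M, TAP1, TAP2 and TAPBP), against 2.7% of 16147 promoters. Of these 5 genes, TAP1 rose, TAPBP fell in both kinds of RNA, B2M fell in HP RNA, and HLA-F and TAP2 were not called. κB was found in 5 of the 8, TGACG in 4, CCAAT in 6 and the class I interferon motif in 3.

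HLA-DRB1 (chr6:32577902-32589848, minus strand), the β chain that pairs with HLA-DRA to form HLA-DR, was the only class II gene of the 9 and the least abundant, with 11 to 107 counts a library. In HP RNA it had 1.20, 1.23 and 1.38 CPM with hnRNP U siRNA, against 1.94, 2.28 and 2.76 CPM with control siRNA. In total RNA it had 0.307, 0.663 and 1.15 CPM with hnRNP U siRNA, against 1.41, 1.15 and 1.39 CPM with control siRNA. The HP groups were apart, while in total RNA hnRNP U siRNA replicate 3 reached the lowest control library. The log2 fold change was −0.91 in HP RNA (SE 0.19, adjusted p = 0.00037 by edgeR) and −0.89 in total RNA (SE 0.31, adjusted p = 0.02 by edgeR). The call in total RNA was lost without hnRNP U siRNA replicate 1 (−0.55, adjusted p = 0.086) or 2 (−0.84, adjusted p = 0.067) and without control replicate 3 (−0.85, adjusted p = 0.063), over an adjusted p range of 0.00051 to 0.086. In HP RNA it was called under every alternative, from −1.02 to −0.77.

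**Figure D2:**
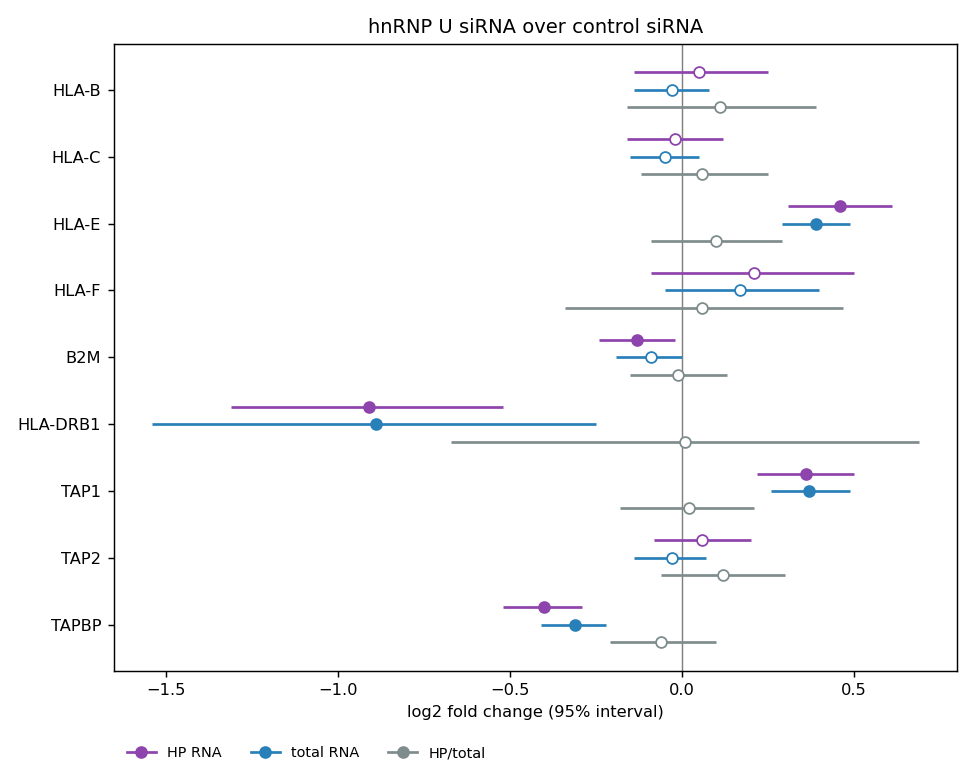
Log2 fold change of hnRNP U siRNA over control siRNA (x axis) for each of the 9 genes (rows) in HP RNA (purple), in total RNA (blue) and for their ratio HP/total (grey), with 95% intervals. Filled circles have an adjusted p under 0.05, and every grey circle is open with its interval over 0.

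No difference between the change in HP RNA and that in total RNA was detected for the 9 genes. The HP/total comparison, an interaction term fitted to the 12 libraries together, called 0 of the 9 by edgeR, with 0 at an unadjusted p under 0.05, and DESeq2 also called 0. Over all genes 0.157% were called. The log2 fold changes of HP/total of the 9 genes lay between −0.06 and 0.12, with a median of 0.06 against 0.04 for all genes, and the smallest adjusted p was 0.84. TAP2 had the largest, 0.12 (SE 0.09, 95% interval −0.06 to 0.30). HLA-E had 0.10 (SE 0.09, 95% interval −0.09 to 0.29) and TAPBP −0.06 (SE 0.07, 95% interval −0.21 to 0.10). B2M had the narrowest interval, −0.15 to 0.13, and HLA-DRB1 the widest, −0.67 to 0.69, so a change in the polysomal share of HLA-DRB1 was hardly limited by these counts.

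The 9 mRNAs were all higher in HP RNA than in total RNA, with either siRNA. Of all genes, 34.3% were called higher and 33.7% lower with hnRNP U siRNA, and 33.1% higher and 32.1% lower with control siRNA. This was not particular to the 9 genes. With either siRNA all 4 tested immunoproteasome and PA28 genes and all 4 constitutive proteasome genes listed below were called higher. So were 5 of 6 tested epithelial markers, with 0 lower. Of 7 tested genes of peptide loading and quality control, 4 were higher and 2 lower with either siRNA. On the log2 scale HP over total RNA ran from 0.14 to 0.95 with a median of 0.78 with hnRNP U siRNA, and from 0.22 to 0.86 with a median of 0.70 with control siRNA, with medians over all genes of −0.02 and −0.03 for the same siRNAs. HLA-B had the highest ratio, 0.95 (SE 0.07) with hnRNP U siRNA and 0.86 (SE 0.08) with control siRNA, and HLA-C had 0.86 (SE 0.05) with hnRNP U siRNA and 0.82 (SE 0.06) with control siRNA. HLA-E and HLA-F lay between 0.70 and 0.81, and HLA-DRB1 at 0.81 (SE 0.30) with hnRNP U siRNA and 0.83 (SE 0.19) with control siRNA. TAP1 had 0.55 with each siRNA (SE 0.05 with hnRNP U siRNA and 0.07 with control siRNA). TAP2 had 0.55 (SE 0.05) with hnRNP U siRNA and 0.45 (SE 0.07) with control siRNA. B2M had 0.31 (SE 0.05) with hnRNP U siRNA and 0.34 (SE 0.05) with control siRNA. TAPBP had the lowest ratio, 0.14 (SE 0.05, adjusted p = 0.01 by edgeR) with hnRNP U siRNA and 0.22 (SE 0.06, adjusted p = 0.0032 by edgeR) with control siRNA. The order was the same in both arms at its ends, HLA-B first and TAPBP last. With hnRNP U siRNA the call of TAPBP was lost without total RNA replicate 2 (0.13, adjusted p = 0.058), with upper-quartile factors (0.05, adjusted p = 0.32) and at a minimum count of 50 (0.07, adjusted p = 0.17), over an adjusted p range of 0.00043 to 0.32. That of HLA-DRB1 was lost without total RNA replicate 1 (0.47, adjusted p = 0.11) or 2 (0.76, adjusted p = 0.069), without HP replicate 2 (0.84, adjusted p = 0.053) or 3 (0.76, adjusted p = 0.073), and with upper-quartile factors (0.72, adjusted p = 0.053), over a range of 0.0006 to 0.11.

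**Figure D3:**
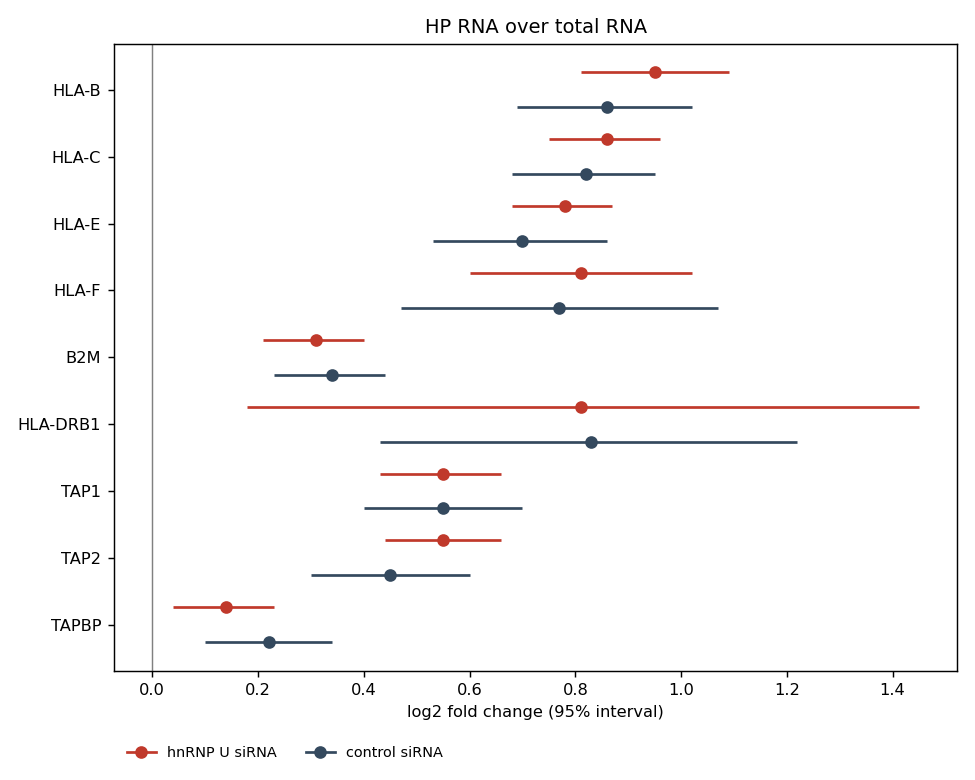
Log2 fold change of HP RNA over total RNA (x axis) for each of the 9 genes (rows) with hnRNP U siRNA (red) and control siRNA (dark blue), with 95% intervals, all circles filled for an adjusted p under 0.05. All values are above 0, from 0.14 for TAPBP to 0.95 for HLA-B with hnRNP U siRNA.

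Levels between genes were compared as CPM per kilobase of annotated exon. In HP RNA with hnRNP U siRNA the order was HLA-C at 186 ± 12.3, B2M at 104 ± 5.49, HLA-E at 61.4 ± 2.11, HLA-B at 54.6 ± 5.35, TAPBP at 21.5 ± 0.82, TAP1 at 20.1 ± 1.07, TAP2 at 4.56 ± 0.122, HLA-F at 3.00 ± 0.379 and HLA-DRB1 at 0.412 ± 0.0321 CPM per kilobase (SD, n = 3). TAPBP and TAP1 overlapped there, and no other neighbours did. With control siRNA in HP RNA the order of HLA-E and HLA-B was the other way round, HLA-B at 51.4 ± 6.37 and HLA-E at 43.6 ± 5.36 CPM per kilobase (SD, n = 3), with overlapping libraries, and TAPBP stood clear of TAP1 at 27.8 ± 1.55 against 15.3 ± 1.55 CPM per kilobase. In total RNA too the place of HLA-E differed between siRNAs. HLA-E at 35.3 ± 1.28 CPM per kilobase was above HLA-B at 27.9 ± 2.05 with hnRNP U siRNA, while with control siRNA HLA-B at 28.4 ± 1.73 and HLA-E at 26.9 ± 1.48 overlapped (SD, n = 3). The annotated exons of HLA-B span 4623 bases, against 2507 for HLA-C and 2922 for HLA-E. Divided by the canonical transcript instead, an alternative chosen after the data were seen, B2M came first in all 4 groups and HLA-B stood above HLA-E in all 4, at 164 against 70.5 CPM per kilobase in HP RNA with hnRNP U siRNA. The order among heavy chains thus depends on the length used. The protein-coding gene ENSG00000250264 overlaps TAP2 on the same strand over 16907 bases and had 0 counts in every library. How reads that fit both were counted is not given in the sources used here, so the level of TAP2 beside other genes is uncertain. The lncRNA ENSG00000289100, which overlaps TAPBP on the opposite strand, had 27 to 120 counts.

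RNA G-quadruplexes (RG4s), folds of guanine-rich RNA that some RNA-binding proteins recognise, are the subject of the study. A motif of 4 stretches of 3 or more G, set 1 to 7 bases apart, was found in the canonical transcript of 1 of the 9 genes, TAP2, against 24.0% of 15918 genes tested. It lies in the 3′ UTR, in exon 12 of 12, at chr6:32828676-32828695 on the minus strand, and is shown with the G runs in capitals.
TAP2: GGGGtGGGGtGGGGtGGGGG
TAP2 was not called in HP RNA, in total RNA or for HP/total. With any annotated transcript the motif was found in 5 of the 9 (HLA-B, HLA-C, HLA-E, HLA-F and TAP2) against 39.9% of genes, and with runs of at least 2 G in 9 of 9 against 94.4%.

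Genes of the rest of the pathway were called in both directions. The counts of each list stand against a background in which 25.4% of all genes were called higher and 26.3% lower in HP RNA, and 27.9% higher and 29.5% lower in total RNA, so that more genes were called than not, and in lists this short they say little about the list itself. Of 8 genes of peptide loading and quality control in the endoplasmic reticulum, 7 were tested, and 3 rose and 2 fell in HP RNA (median −0.03) and 3 rose and 3 fell in total RNA (median −0.09). The chaperones CANX (calnexin) and HSPA5 (BiP) rose, CANX by 0.19 on the log2 scale in each kind of RNA, and HSPA5 by 0.23 in HP RNA and 0.15 in total RNA. ERAP1 and ERAP2, aminopeptidases that trim peptides to length, had log2 fold changes of −0.27 and −0.51 in HP RNA and −0.26 and −0.49 in total RNA. The ERAP calls were weak. With DESeq2 that of ERAP2 was lost in both kinds of RNA (adjusted p = 0.11 in HP RNA and 0.066 in total RNA) and that of ERAP1 in HP RNA (adjusted p = 0.055). In HP RNA ERAP2 was also not called with upper-quartile factors (−0.49) or with all 12 libraries in 1 fit (−0.47). That of ERAP2 was further lost without hnRNP U siRNA replicate 1 or 2 or control replicate 2 or 3 in either kind of RNA (−0.49 to −0.33). That of ERAP1 was lost in HP RNA without hnRNP U siRNA replicate 1 (−0.21) or control replicate 2 (−0.22) or 3 (−0.27), and in total RNA without hnRNP U siRNA or control replicate 2 (−0.20 each). The tapasin relative TAPBPL had at most 2 counts in any library.

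Proteasome genes make the peptides. Of 5 genes of the immunoproteasome and the PA28 activator, 4 were tested, and 2 fell in each kind of RNA with none higher (median −0.29 in HP RNA and −0.31 in total RNA). They were the PA28 subunits PSME1, at −0.18 in HP RNA and −0.25 in total RNA, and PSME2, at −0.26 in HP RNA and −0.37 in total RNA. The HP call of PSME1 was lost without control replicate 1 (−0.14). The catalytic immunosubunit PSMB9, whose annotated transcripts overlap TAP1 on the opposite strand, had 58 to 165 counts, and PSMB8 had at most 7. Of 4 constitutive genes PSMB7, a catalytic subunit, rose by 0.32 in HP RNA and by 0.23 in total RNA. PSME3, the nuclear activator, fell by 0.32 in HP RNA and by 0.23 in total RNA, and the other 2 were not called. All 6 cytosolic peptidases were called in each kind of RNA, 2 higher and 4 lower (median −0.19 in HP RNA and −0.21 in total RNA). LAP3, leucine aminopeptidase, rose by 0.49 in HP RNA and 0.47 in total RNA. In HP RNA NRDC had −0.88, THOP1 −0.40 and BLMH −0.24, and in total RNA NRDC had −0.73, THOP1 −0.39 and BLMH −0.25.

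Other class I genes and class I-like genes were also mixed. Of 13, 11 were tested, with 3 higher and 4 lower in HP RNA (median −0.19) and 2 higher and 4 lower in total RNA (median 0.02). MICB, a stress ligand of the NKG2D receptor of natural killer cells, had 100.2 ± 1.89 CPM in HP RNA with hnRNP U siRNA and 58.8 ± 4.98 CPM with control siRNA (SD, n = 3 each), which is a log2 change of 0.73 (SE 0.06, adjusted p = 2.9e-09 by edgeR), and 0.71 (SE 0.05, adjusted p = 7.8e-10 by edgeR) in total RNA. MR1, which presents vitamin B metabolites, fell in HP RNA by 0.83 and in total RNA by 1.00 on the log2 scale. PROCR, the endothelial protein C receptor with a class I fold, had −0.67 in HP RNA and −0.75 in total RNA. RAET1E, another NKG2D ligand, had −0.71 in HP RNA and −0.60 in total RNA, where it was not called without hnRNP U siRNA replicate 2 (−0.45).

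Most genes of class II chains were rare, as HLA-DRB1 was. Of 14 genes of the class II pathway 8 were tested, with 1 higher and 3 lower in HP RNA (median −0.59) and 1 higher and 4 lower in total RNA (median −0.06). HLA-DRA, the α chain that pairs with HLA-DRB1, had 1.91 ± 0.596 CPM in HP RNA with hnRNP U siRNA and 4.09 ± 1.22 CPM with control siRNA (SD, n = 3 each), which is a log2 change of −1.14 (SE 0.24, adjusted p = 0.0014 by edgeR), and −1.25 (SE 0.18, adjusted p = 9e-06 by edgeR) in total RNA. HLA-DQB1 had −0.91 in HP RNA and −0.83 in total RNA. HLA-DMB, which helps class II to exchange peptides, had −1.27 in HP RNA and −0.87 in total RNA, the total RNA call being lost without control replicate 3 (−0.57). HLA-DOA, a brake on that exchange, was the gene called higher, at 0.84 in HP RNA and 1.02 in total RNA. Its call was lost in HP RNA without hnRNP U siRNA replicate 1 (0.69) or 3 (0.80) or control replicate 1 (0.71) or 2 (0.74), and in total RNA without hnRNP U siRNA replicate 3 (0.66) or control replicate 1 (0.92), and in HP RNA also with DESeq2 (0.86, adjusted p = 0.084). CIITA, the master activator of class II, had at most 3 counts in any library.

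**Figure D4:**
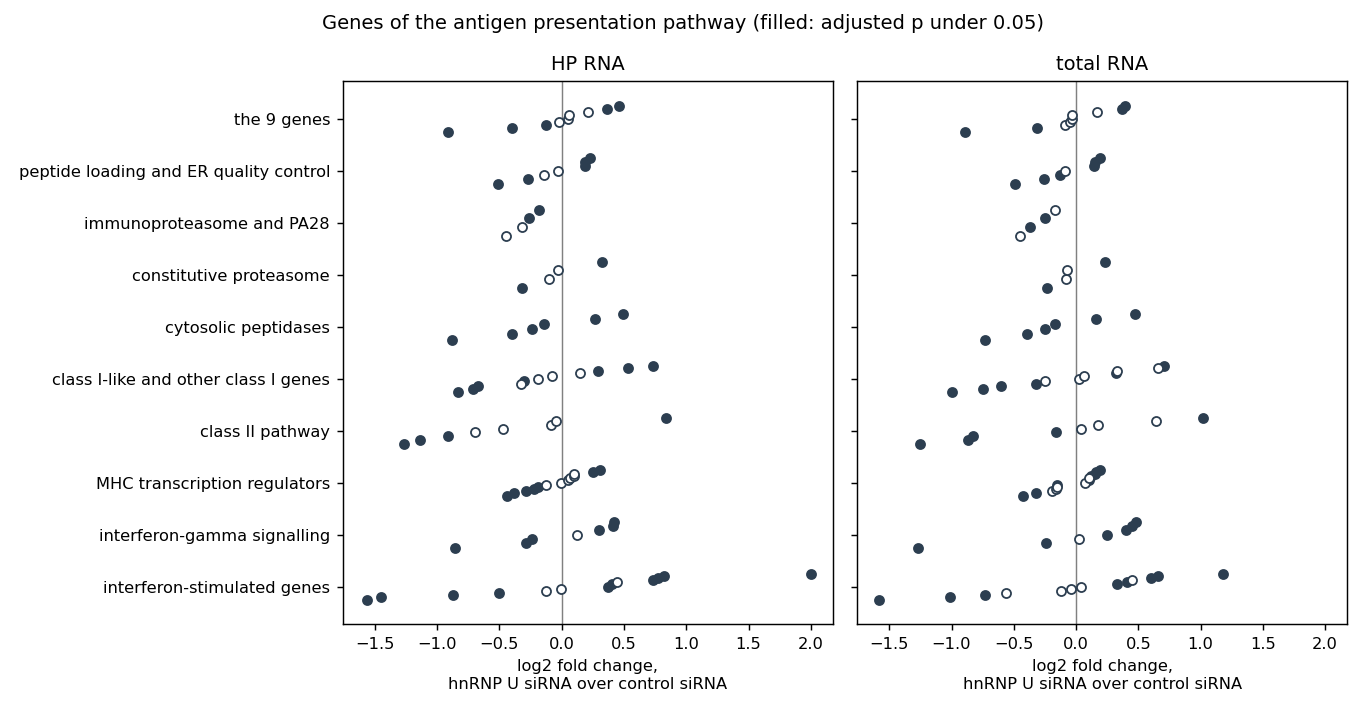
Log2 fold change of hnRNP U siRNA over control siRNA (x axis) in HP RNA (left) and total RNA (right) for every tested gene of each list (rows), with the 9 genes on the top row. Filled circles have an adjusted p under 0.05, and each row but that of the immunoproteasome and PA28 has circles on both sides of 0.

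Of 14 transcription factors of MHC genes 13 were tested, with 2 higher and 5 lower in HP RNA (median −0.01) and 5 higher and 3 lower in total RNA (median 0.07). RFX5, a subunit of the complex that binds the X box, had −0.44 in HP RNA and −0.43 in total RNA. NFKB2 had −0.22 in HP RNA and −0.32 in total RNA. NFYB, a subunit of NF-Y, had 0.31 in HP RNA and 0.07, not called, in total RNA. It was called in total RNA without control replicate 1 (0.17). NLRC5, the activator of class I genes, had −0.38 in HP RNA (SE 0.14, adjusted p = 0.033 by edgeR) and −0.16 in total RNA (SE 0.12, adjusted p = 0.26 by edgeR). Its HP call was lost without hnRNP U siRNA replicate 2 (−0.25) or 3 (−0.32) or control replicate 3 (−0.33), and with DESeq2 (adjusted p = 0.050).

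All 7 genes of interferon-γ signalling were tested, with 3 higher and 3 lower in HP RNA (median 0.12) and 4 higher and 2 lower in total RNA (median 0.25). The kinase JAK1 rose by 0.42 in HP RNA and 0.48 in total RNA. The receptor chain IFNGR2 rose by 0.30 in HP RNA and 0.40 in total RNA, the HP call being lost without hnRNP U siRNA replicate 1 (0.22) or control replicate 2 (0.20). The phosphatase PTPN2, which restrains the pathway, rose by 0.41 in HP RNA and 0.45 in total RNA, whereas SOCS1, its feedback inhibitor, had −0.86 in HP RNA and −1.27 in total RNA. Of 20 interferon-stimulated genes 13 were tested, with 6 higher and 4 lower in HP RNA (median 0.37) and 5 higher and 3 lower in total RNA (median 0.04). OAS3, which senses double-stranded RNA, had 26.2 ± 1.01 CPM in HP RNA with hnRNP U siRNA and 75.2 ± 3.55 CPM with control siRNA (SD, n = 3 each), which is a log2 change of −1.56 (SE 0.06, adjusted p = 5.3e-14 by edgeR), and −1.58 (SE 0.06, adjusted p = 3.9e-14 by edgeR) in total RNA. IFI27 rose by 2.00 in HP RNA and 1.18 in total RNA, at no more than 1.54 CPM in any library. IFIT2 had −0.87 in HP RNA and −0.56, not called, in total RNA, where it was called without hnRNP U siRNA replicate 1 (−0.78) or control replicate 2 (−0.73), with no filter (adjusted p = 0.029), with a block by replicate number (adjusted p = 0.049) and with all 12 libraries in 1 fit (adjusted p = 0.047). MX1 had −1.45 in HP RNA and −1.01 in total RNA. Its call was lost in HP RNA without hnRNP U siRNA replicate 1 (−1.11) or control replicate 1 (−1.05), and in total RNA without hnRNP U siRNA replicate 1 (−0.99) or 3 (−0.83) or control replicate 2 (−0.70) and with DESeq2 (−1.02, adjusted p = 0.078). None of the genes on these lists was called for HP/total by edgeR.

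Except for B2M on chromosome 15, the genes lie in the MHC on chromosome 6. Between the start of HLA-F and the end of TAPBP (chr6:29722775-33314284, 3.59 Mb) 121 other genes were tested. Of these 46 were called higher and 23 lower in HP RNA (38.02% and 19.0%, median 0.13), and 42 higher and 20 lower in total RNA (34.7% and 16.5%, median 0.09). Over all genes tested, HP RNA had 25.4% called higher and 26.3% lower, and total RNA had 27.9% called higher and 29.5% lower. For HP/total 0 of them were called. The 6 with the largest change in total RNA were the lncRNA ENSG00000289559 at 3.49, APOM, a carrier of lipids in plasma, at −2.27, TNXB, an extracellular matrix protein, at −2.00, MUCL3 at −1.46, HLA-DRA at −1.25 and VWA7 at 1.24, with 3.28, −1.03, −2.22, −3.09, −1.14 and 1.11 in HP RNA. Near neighbours differed, TAP1 with 0.37 in total RNA and TAP2 beside it with −0.03.

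**Figure D5:**
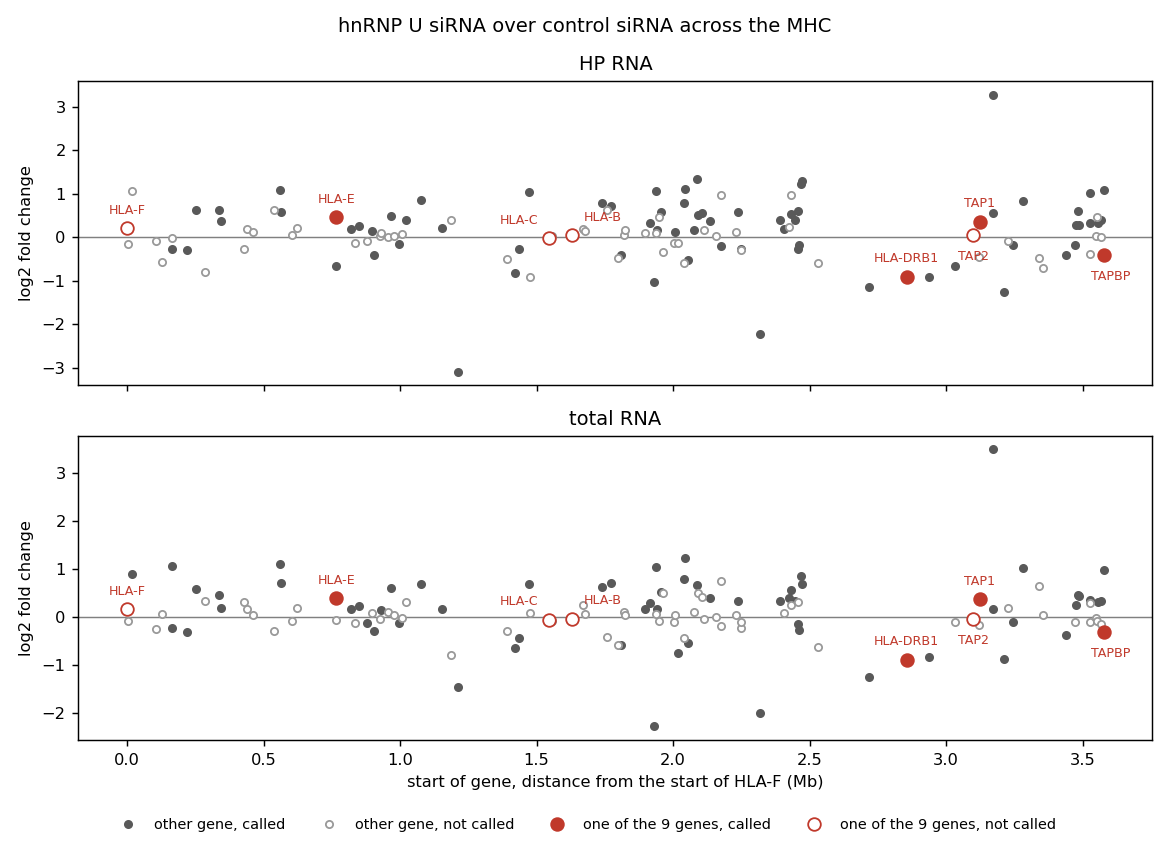
Log2 fold change of hnRNP U siRNA over control siRNA (y axis) in HP RNA (top) and total RNA (bottom) of every tested gene between HLA-F and TAPBP, by the distance of its start from that of HLA-F in Mb (x axis). The 8 genes of the group that lie there are red and the other 121 grey, filled where adjusted p is under 0.05.

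Across the 12 libraries the log2 CPM of HLA-B and HLA-C had a Pearson r of 0.996. HLA-E and TAP1 had 0.9754, HLA-DRB1 and TAPBP 0.848, and TAP1 and TAPBP −0.03. The 12 points share 4 conditions, so these values mainly carry the differences between HP and total RNA and between siRNAs, and they are a description. The protein-coding genes most like HLA-B were LSR (0.997), HLA-C and IGFBP2 (0.994), and those most like HLA-C were IGFBP2 (0.997), CTSB (0.997) and HLA-B. HLA-E was most like FXYD5 (0.996), TUBA1A (0.991) and SIL1 (0.991), HLA-F most like CYB5R1 (0.985), FUCA1 (0.979) and PLD3 (0.978), and B2M most like TSPYL2 (0.994), CLDN3 (0.987) and TSPO (0.987). HLA-DRB1 was most like WNT3A (0.968), COL6A2 (0.945) and TMC4 (0.943). TAP1 was most like ABHD3 (0.991), SLC49A4 (0.990) and SDF2 (0.990), TAP2 most like LRPAP1 (0.990), PDIA6 (0.988) and CTSA (0.987), and TAPBP most like B3GNT3 (0.990), IRS1 (0.989) and TRIM5 (0.989).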

How the data were processed

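Directional libraries of poly(A) RNA were sequenced by the authors as single reads of 75 bases. Their methods state that reads were trimmed with Trim Galore (quality 30, length 18), aligned to hg38 with STAR and counted over GENCODE release 43. The deposited values are raw counts per gene with no normalization. ERCC spikes, which the methods name, were not used here. Names, exons and transcripts came from GENCODE release 44 (62639 of 62703 identifiers matched) and promoters from RefSeq.

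Genes were filtered by filterByExpr (minimum count 10) and compared with edgeR 4.0.16 (TMM, robust quasi-likelihood F-test, Benjamini-Hochberg over 15920 genes, threshold 0.05) in R 4.3.3. HP RNA and total RNA were fitted apart for the siRNA effect, each siRNA apart for HP against total RNA, and HP/total was the interaction over 12 libraries. The script was tested on simulated data. Alternatives were DESeq2 1.42.0, its size factors, upper-quartile factors, no filter, all 12 libraries in 1 fit, a minimum count of 50, a block by replicate number, and leaving out each library. Replicates differed beyond sampling noise (chi-square per gene of 3.45 to 9.68).

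The 9 genes and the lists were chosen with earlier results of these data known. Named beside the 9 genes were HNRNPU, up to 4 called genes of each list with the largest change in total RNA (HP RNA where called only there), the 6 MHC genes with the largest change in total RNA, and the 3 protein-coding genes with the highest r to each of the 9. Genes named for their low counts, PSMB9 and HLA-H were added after their values were seen. Some genes whose annotation overlaps that of the 9 were also named. Levels were divided by the union of annotated exons. The alleles carried by HCT116 were not analysed here. Counts carry no molecular identifiers, and the labels call the replicates biological.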

Additional observations from a re-analysis of the deposited data

How the results depend on the processing

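The number of the 9 genes called stayed between 4 and 5 in total RNA and 4 and 6 in HP RNA under the alternatives that kept all libraries, and between 3 and 5 and 4 and 5 when each library was left out in turn. It was 0 for HP/total in every fit. HP against total RNA called 7 to 9 with hnRNP U siRNA and 9 with control siRNA. Over all genes, HP/total called 25 genes, 49 with no filter on low counts, 49 with DESeq2, and 17 to 37 when each library was left out. The RG4 motif was in 1 of the 9 genes, in 9 with runs of at least 2 G and in 5 with any annotated transcript. No value that changed sign was called. HLA-C in HP RNA was 0.01 with all 12 libraries in 1 fit. For HP/total, HLA-F was 0.00 with no filter, B2M 0.01 at a minimum count of 50, HLA-DRB1 −0.02 with DESeq2, DESeq2's size factors or upper-quartile factors and −0.05 with no filter, and TAP1 −0.02 with DESeq2 or its size factors, −0.01 with upper-quartile factors and −0.04 with no filter. When each library was left out, HLA-B ran from −0.01 to 0.15 in HP RNA and from −0.07 to 0.03 in total RNA, HLA-C from −0.06 to 0.05 in HP RNA, and TAP2 from −0.01 to 0.10 in HP RNA and from −0.06 to 0.01 in total RNA. For HP/total the ranges were −0.04 to 0.14 for HLA-C, −0.07 to 0.23 for HLA-F, −0.07 to 0.02 for B2M, −0.33 to 0.54 for HLA-DRB1 and −0.05 to 0.10 for TAP1. The causes of these shifts were not tested.

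Libraries of the 4 groups share replicate numbers, and their titles share a code for each number that the labels do not explain. The titles call the total RNA libraries input. The main comparisons treated HP and total RNA libraries as independent, which ignores any pairing that the shared codes may mark. The log2 CPM of each library was taken as a deviation from its group mean, gene by gene, and these deviations were correlated over the genes tested. Such correlations do not measure how alike whole libraries are. Those of same-numbered libraries between siRNAs ran from −0.004 to 0.08, and those of different numbers from −0.096 to 0.051. Same-numbered libraries ran from 0.05 to 0.13 between fractions, where libraries of different numbers ran from −0.12 to 0.01. Between fractions the deviations of every library thus correlated best with those of its own number, a hint from the data. Not every value passed 0.1, and the numbers were not taken to pair the libraries. Between siRNAs in total RNA, replicate 1 correlated better with replicate 2 than with its own number. With a block by replicate number 76 genes were called for HP/total, and 5 of the 9 genes were called in total RNA and 6 in HP RNA. A block by siRNA and number gave 180 for HP/total, with 0 of the 9 genes. Under the block B2M in total RNA (−0.09) and HLA-F in HP RNA (0.22) were also called. Upper-quartile factors moved the median of all genes between fractions to −0.11 with either siRNA, and leaving out the filter moved it to −0.11 with hnRNP U siRNA and −0.12 with control siRNA. HLA-DRB1 and HLA-F rest on the fewest counts, 11 to 107 and 187 to 514 a library, and limit what can be said of them.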
